A study of Mus musculus with 2 samples.

Results

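The 33 genes described here encode transcription factors, cofactors and chromatin regulators that build the heart during development. They were taken by name (Nkx2-5, Gata4 to Gata6, Tbx2, Tbx3, Tbx5, Tbx18, Tbx20, Mef2a, Mef2c, Mef2d, Hand1, Hand2, Srf, Myocd, Hopx, Irx3 to Irx5, Isl1, Prox1, Hey1, Hey2, Heyl, Nr2f1, Nr2f2, Meis1, Meis2, Smyd1, Zfpm1, Zfpm2 and Foxp1) and all 33 were found among the 43346 mouse genes of the tables. RNA was sequenced from the hearts of newborn mice (postnatal day 0) of strain B6NCrl, which carried no engineered allele or treatment that the labels name. Each of 2 libraries was made from 13 pg of total RNA longer than 200 nt, labelled as 1 cell-equivalent, that is, an amount like that of a single cell but drawn from the extract of a whole organ. Replicate 1 is the heart of pup 1 and replicate 2 that of pup 3. Sex was not recorded, and both carry 1 donor identifier. There is 1 group and no contrast, so values are given for each library and no test was made. A difference between the libraries joins the heart, the aliquot of RNA and its amplification, which cannot be told apart, and in RNA from a whole organ fewer cells of a type and less RNA per cell cannot be told apart either.

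Heart formation rests on a small set of factors that bind one another as well as DNA. The homeodomain protein Nkx2-5, the zinc-finger proteins Gata4 and Gata6, the T-box protein Tbx5, the MADS-box proteins Mef2 and Srf and the basic helix-loop-helix protein Hand2 act together on genes of the contractile apparatus. Others fix where a chamber, valve or node forms: Tbx2 and Tbx3 repress the chamber programme, Hey2 and the Irx proteins mark ventricular muscle, and Nr2f2 marks the atria. The early progenitor factor Isl1 is switched off as most cardiac cells differentiate.

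A gene was called read in a library at 1 TPM (transcripts per 1000000, a level corrected for transcript length) or more. Of the 33 members, 17 were read in both libraries, 8 in only 1 of them and 8 in neither. Among all protein-coding genes of the tables, 28.4% were read in both. The members held 476 of 1000000 TPM in replicate 1 and 672 in replicate 2, which is 0.0574% ± 0.0139 (SD, n = 2) of the transcripts. Their levels were moderate. The 17 members read in both had a median of 25.3 TPM, and the highest, Smyd1, averaged 81.1 TPM. Of the 18 steps between neighbours in the order of mean level among the 19 members averaging at least 5 TPM, none separated 2 genes whose ranges over the libraries were apart, so the order by mean is loose throughout.

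**Figure D1:**
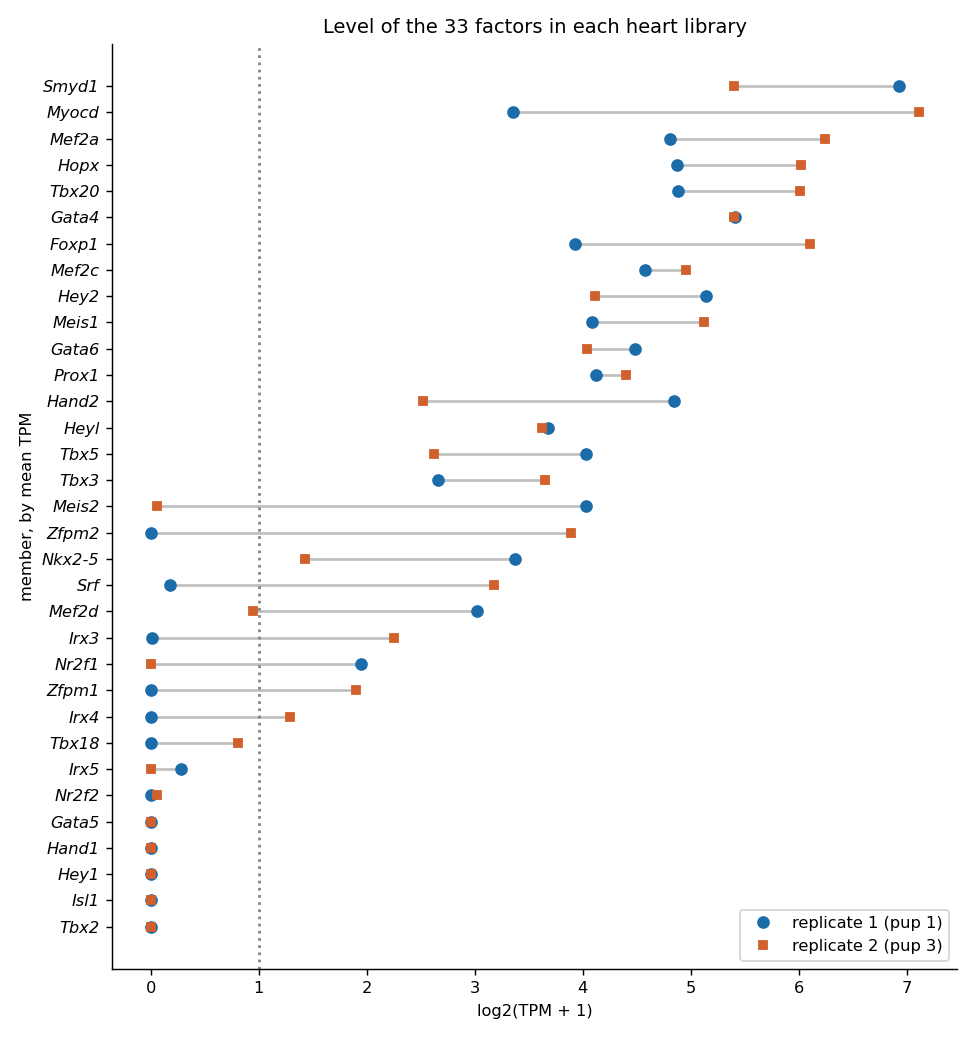
Level of each of the 33 members as log2(TPM + 1) in replicate 1 (circles) and replicate 2 (squares), ordered by mean TPM, with a dotted line at 1 TPM. Gata4 and Heyl sat at nearly 1 level in both libraries, Myocd, Meis2 and Zfpm2 lay far apart, and 5 members were at 0 in both.

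Among the GATA factors, Gata4 was at 41.5 TPM in replicate 1 and 41.2 in replicate 2, from 2905 and 2122 expected counts (estimated reads). The libraries gave the same level to within the interval deposited with the tables. Gata6, which shares much of the work of Gata4 in cardiac muscle, was at 21.4 and 15.5 TPM. Gata4 was the higher of the pair in both libraries, 1.94-fold in replicate 1 and 2.66-fold in replicate 2, a mean log2 ratio of 1.14 ± 0.31 (SD, n = 2). Gata5, a factor of the early endocardium, had 0 counts in both. Taking the 3 counts that a 0 allows in each library as its upper limit, Gata6 was at least 733-fold and at least 450-fold higher than Gata5. Such limits, here and below, cover the counting of reads in a library only. They do not cover RNA lost in sampling or amplification, so they set no limit on levels in the heart.

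The FOG proteins Zfpm1 and Zfpm2 bind GATA factors and modify what they do. Zfpm2, which is needed for valves and coronary vessels, had 0 counts in replicate 1 and 1848 in replicate 2, where it stood at 13.8 TPM. Zfpm1 had 0 counts in replicate 1 and 247 in replicate 2, at 2.74 TPM. So neither FOG gene was seen in replicate 1 beside steady Gata4. Per read, Zfpm2 was at least 746-fold and Zfpm1 at least 99.7-fold higher in replicate 2, against 3 counts in replicate 1. Only 2 of the 19 members averaging at least 5 TPM, Zfpm2 and Meis2, had fewer than 3 counts in 1 library, and 20.1% of all genes at such a mean did.

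Tbx20, a T-box factor that chamber muscle needs throughout life, led its family with 28.5 TPM in replicate 1 and 63.4 in replicate 2. Its counts were close to equal, 5463 and 5170, and the difference in TPM went with the transcript models to which the reads were assigned. Tbx5, which drives atrial and left ventricular genes, was at 15.4 and 5.18 TPM, the higher value in replicate 1. Tbx3, a repressor of the chamber programme in the conduction system, was at 5.34 and 11.6 TPM, a ratio that just missed 2-fold. Its close relative Tbx2, which acts in the atrioventricular canal of the embryo, had 0 counts in both, so Tbx3 was at least 203-fold and at least 374-fold higher. Tbx18, a factor of the epicardium and of the sinus node, had 0 counts in replicate 1 and 95 in replicate 2, which is 0.757 TPM.

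Nkx2-5, the homeodomain factor with which cardiac identity is most often marked, was weakly read for its role. It stood at 9.38 TPM in replicate 1 and 1.69 in replicate 2, from 432 and 66 counts, a ratio of 3.86-fold on the log2(TPM + 1) scale used for ratios here. Hand2, needed for the right ventricle and the outflow tract, was at 27.8 and 4.73 TPM and was 5.02-fold higher in replicate 1. Its relative Hand1, a factor of the embryonic left ventricle, had 0 counts in both, and Hand2 was at least 375-fold and at least 54.3-fold above it. Isl1 had 0 counts in both. By the limit of 3 counts, Nkx2-5 was at least 128-fold and at least 19.5-fold higher than Isl1.

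The Mef2 proteins switch on muscle structural genes. Mef2a was at 27.1 TPM in replicate 1 and 74.8 in replicate 2, Mef2c at 22.8 and 30.2, and Mef2d at 7.11 and 0.930. Mef2c differed least between the libraries of these 3, and Mef2d was over the read threshold in replicate 1 only, with 1192 counts against 96. Mef2b, the remaining gene of the family, had 0 counts in both.

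Mef2 transcripts choose between a pair of mutually exclusive coding exons behind the DNA-binding domain, of which the more downstream in Mef2d is known to be favoured in differentiated muscle, and they can take up a short exon that is common in muscle and brain. These exons are shown so that the models can be told apart, and the shares of some of them differed between the libraries. The 60-nt and 138-nt exons of Mef2c are not mutually exclusive in the models of GENCODE M21, as Mef2c-202 holds both there. Coordinates are those of mm10, and sequences are read 5′ to 3′ on the gene's strand from the GENCODE M21 transcripts. The long exons are in lower case and the short ones in capitals.
Mef2a 132-nt exon, chr7:67268269-67268400, minus strand: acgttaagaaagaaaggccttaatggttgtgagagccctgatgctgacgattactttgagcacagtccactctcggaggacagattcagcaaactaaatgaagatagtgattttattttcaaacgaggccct
Mef2a 24-nt exon, chr7:67244521-67244544, minus strand: TCGGAGGAAGAGGAATTGGAGTTG
Mef2c 138-nt exon, chr13:83625470-83625607, plus strand: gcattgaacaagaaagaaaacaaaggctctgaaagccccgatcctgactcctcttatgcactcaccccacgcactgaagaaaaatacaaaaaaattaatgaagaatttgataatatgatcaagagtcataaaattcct
Mef2c 60-nt exon, chr13:83625265-83625324, plus strand: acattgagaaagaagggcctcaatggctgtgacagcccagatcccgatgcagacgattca
Mef2c 24-nt exon, chr13:83654598-83654621, plus strand: TCTGAGGATGTGGATCTGCTGTTG
Mef2d 135-nt exon, chr3:88158221-88158355, plus strand: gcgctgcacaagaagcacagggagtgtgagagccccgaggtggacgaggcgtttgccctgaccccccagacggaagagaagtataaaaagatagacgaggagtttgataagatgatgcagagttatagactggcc
Mef2d 138-nt exon, chr3:88158034-88158171, plus strand: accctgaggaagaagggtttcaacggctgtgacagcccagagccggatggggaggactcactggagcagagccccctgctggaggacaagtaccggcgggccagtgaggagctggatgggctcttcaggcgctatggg
Mef2d 21-nt exon, chr3:88161781-88161801, plus strand: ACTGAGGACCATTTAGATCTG

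Length alone does not pair these exons across genes. In a global alignment the 138-nt exon of Mef2c was 65.9% identical to the 135-nt exon of Mef2d and 51.0% identical to the 138-nt one. The 132-nt exon of Mef2a was 57.1% identical to the 138-nt exon of Mef2d and 53.2% to the 135-nt one. The 60-nt exon of Mef2c matched the first 60 bases of the 132-nt exon of Mef2a at 42 bases.

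In Mef2a, transcript models with the 132-nt exon held 95.7% of the gene's TPM in replicate 1 and 52.0% in replicate 2. The 24-nt exon was carried by models with 95.4% and 52.0% of TPM. A single model, Mef2a-208, made up 95.4% of Mef2a in replicate 1 and 29.2% in replicate 2, where Mef2a-201 led with 48.1%. Mef2a-206, annotated as a target of nonsense-mediated decay, was at 0 and 22.7%. In Mef2c, all 3 models hold the 138-nt exon in GENCODE M21, so its share there is set by the annotation. The deposited models are of GENCODE M4, and 0 of the 3 have the same length in M21. Whether the deposited Mef2c models hold the exons named here was not tested. Mef2c-203, with the 24-nt exon in M21, led in both libraries with 57.1% and 82.7%. Mef2c-202, with the 60-nt exon in M21, held 42.0% and 17.3%. For Mef2d, models with the 138-nt exon held 100% and 79.1% of TPM, but 100% and 97.9% of expected counts. The rest in replicate 2 was Mef2d-207, a 482-nt model with 20.9% of TPM from 2.05 counts. The only model with the 135-nt exon, Mef2d-202, had 0 counts in both. The 21-nt exon of Mef2d was in models with 3.14% and 0% of its TPM. Mef2d-201 led in both, at 96.9% and 51.6%, the latter from 70.08 counts. These are shares of whole models, not reads over the exons: Mef2a-208 is 5538 nt long and Mef2a-201 is 2476 nt, so reads outside the exons also set the shares. By expected counts, Mef2a-208 led in both libraries (97.9% and 50.9%), and models with the 132-nt exon held 98.1% and 63.5%. In Mef2c the lead by expected counts passed from Mef2c-202 in replicate 1 (57.2%, against 41.5% for Mef2c-203) to Mef2c-203 in replicate 2 (71.9%).

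**Figure D2:**
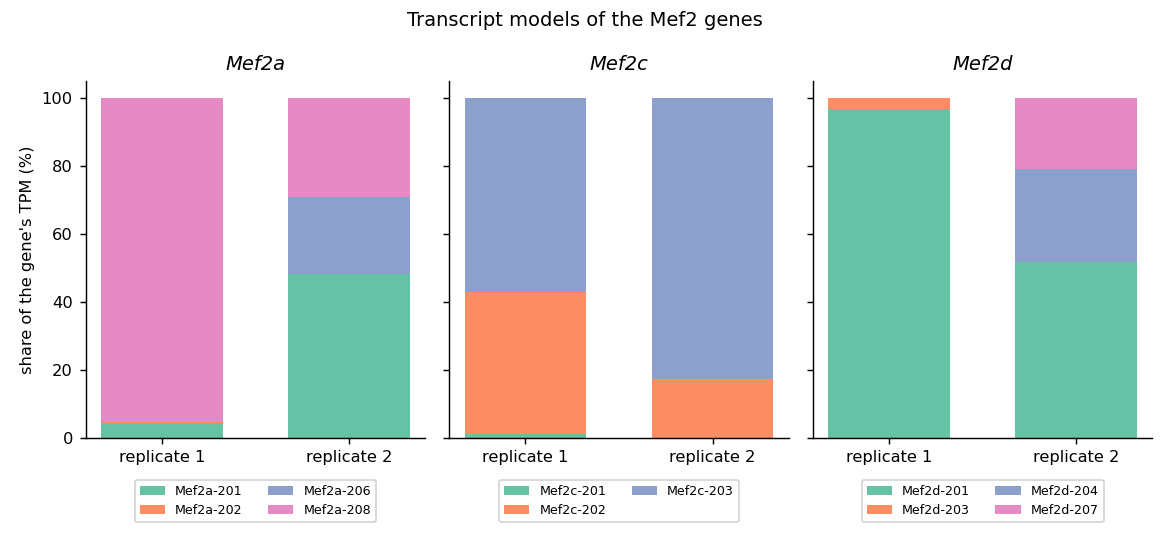
Share of each gene's TPM (percent, from 0 to 100) held by the transcript models of Mef2a, Mef2c and Mef2d in each library, as stacked bars. Mef2a-208 fills 95.4% of the bar in replicate 1 and 29.2% in replicate 2, while Mef2c-203 and Mef2d-201 lead in both.

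Srf binds the CArG box, a short motif of muscle and growth genes, and Myocd is its muscle-specific coactivator. Myocd was at 9.21 TPM in replicate 1 and 138 in replicate 2, the largest ratio among members with more than 3 counts in both libraries and a mean of at least 5 TPM, 13.6-fold. Per read it was 5.22-fold, from 1472 and 6347 counts. Srf was at 0.135 and 8.09 TPM, from 18 and 885 counts. Both were higher in replicate 2, and in each library Myocd stood above Srf, 68.0-fold and 17.0-fold. Hopx, a homeodomain protein that binds Srf and not DNA, was at 28.4 and 63.8 TPM. Smyd1, a methyltransferase of striated muscle on which sarcomere assembly depends, had the highest mean of all members with 121 and 41.4 TPM, the higher in replicate 1, from 12601 and 3675 counts.

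Hopx starts from a pair of promoters, and its models were used unequally. Hopx-201 starts at the upstream promoter and was at 12.5 TPM in replicate 1 and 51.3 in replicate 2. Hopx-202 starts at the downstream one and was at 15.9 and 12.5 TPM. So the model of the downstream start had similar levels, while that of the upstream one took 43.9% of the gene's TPM in replicate 1 and 80.4% in replicate 2. These are shares of whole models, not reads over the first exons, and use of the starts was not tested. Both Hopx promoters and that of Srf are shown as the 250 bases before the start in RefSeq (GRCm38.p6), with CArG boxes in capitals, since Hopx and Srf were the members with this motif.
Hopx, upstream promoter, chr5:77115124-77115373, minus strand: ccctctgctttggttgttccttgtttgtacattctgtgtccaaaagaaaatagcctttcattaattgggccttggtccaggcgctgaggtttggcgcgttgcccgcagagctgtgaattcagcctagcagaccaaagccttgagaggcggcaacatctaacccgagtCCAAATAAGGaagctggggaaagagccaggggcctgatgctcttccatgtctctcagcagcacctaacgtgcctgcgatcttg
Hopx, downstream promoter, chr5:77095268-77095517, minus strand: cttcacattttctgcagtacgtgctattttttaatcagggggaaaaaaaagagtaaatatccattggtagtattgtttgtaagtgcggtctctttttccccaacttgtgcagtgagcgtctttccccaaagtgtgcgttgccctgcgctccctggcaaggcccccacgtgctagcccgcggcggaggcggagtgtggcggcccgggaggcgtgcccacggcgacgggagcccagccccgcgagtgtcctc
Srf, chr17:46556163-46556412, minus strand: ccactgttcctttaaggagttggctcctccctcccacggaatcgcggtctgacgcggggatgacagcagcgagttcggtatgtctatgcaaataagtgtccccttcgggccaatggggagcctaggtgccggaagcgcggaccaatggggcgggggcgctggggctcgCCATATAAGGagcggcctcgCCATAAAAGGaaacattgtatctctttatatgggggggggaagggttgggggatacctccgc

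The upstream Hopx promoter holds 1 CArG box, whose first base is 83 bases before the start, the downstream one holds none, and that of Srf holds 2, beginning 82 and 62 bases before the start. RefSeq windows were found for 22 of the 33 members, 29 windows in all. CArG boxes were in 2 of the 29 windows (6.90%) and in 1.47% of the 32851 windows of all genes, and the motif bound by Mef2 was in 0 of the 29 and in 2.92% of all. GATA motifs (AGATAA, with T also allowed as the first base and G as the last, on either strand) were in 3 windows (10.3%) against 26.5% of all, namely those of Hand2, Isl1 and Nr2f2. The Nkx2-5 motif TNAAGTG was in that of Smyd1 alone, against 10.1% of all, and the T-box motif GGTGTG in those of Hey2, Mef2c and Meis1 (10.3%), against 16.3%. E-boxes (CANNTG), the sites of Hand, Hey and many other helix-loop-helix proteins, were in 16 windows (55.2%) against 66.2%. A match describes letters in a window and is no evidence of binding.

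Hey2 and Heyl are repressors downstream of Notch. Hey2, which keeps ventricular muscle from taking on atrial traits, was at 34.3 TPM in replicate 1 and 16.3 in replicate 2. Heyl was at 11.8 and 11.3 TPM, and with Gata4 it was 1 of the 2 members whose deposited intervals overlapped, the other 17 of 19 having them apart. Among all genes at that mean, 90.4% had intervals apart, and these intervals cover the assignment and counting of reads, not the spread between hearts. Hey1, a factor of atrial muscle and endocardium, had 0 counts in both. Hey2 was at least 426-fold and at least 172-fold above Hey1. For Nr2f2, the regulator of atrial identity, 0 counts were found in replicate 1 and 5 in replicate 2. Nr2f1, which acts beside it, had 288 counts in replicate 1 (2.87 TPM) and 0 in replicate 2.

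The Irx members, which pattern the conduction and contraction of the ventricles, were each seen almost wholly in 1 library. Irx3, needed for fast conduction, had 1 count in replicate 1 and 258 in replicate 2 (3.77 TPM). Irx4, a ventricular factor, had 0 and 91 counts (1.45 TPM in replicate 2), and Irx5 had 16 and 0 (0.219 TPM in replicate 1). No Irx member was read in both libraries.

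Meis1 and Meis2 are homeodomain partners of Hox and Pbx proteins, and Meis1 holds back the division of heart muscle cells after birth. Meis1 was at 16.0 TPM in replicate 1 and 33.9 in replicate 2. Meis2 was at 15.3 and 0.0409 TPM, from 1408 counts and 1. Close to each other in replicate 1 (1.05-fold), they were far apart in replicate 2. Per read, Meis2 was 1162-fold higher in replicate 1, with an exact 95% interval of 208 to 45944 that covers counting error only. Prox1, a homeodomain factor that heart muscle and lymphatic vessels need, was at 16.5 and 20.2 TPM, within 2-fold. Foxp1, a forkhead factor that takes part in the control of myocyte proliferation, was at 14.2 and 68.0 TPM, the higher in replicate 2.

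Between the libraries, 13 of the 19 members averaging at least 5 TPM differed by over 2-fold, beside 54.6% of all 8266 genes at that mean. In 7 the higher value was in replicate 2, namely Zfpm2, Myocd, Foxp1, Mef2a, Hopx, Tbx20 and Meis1, and 27.7% of all genes went that way. In 6 it was in replicate 1, namely Meis2, Hand2, Nkx2-5, Smyd1, Tbx5 and Hey2, against 26.9% of all genes. Gata4, Gata6, Mef2c, Heyl, Prox1 and Tbx3 were within 2-fold. The median log2 ratio of replicate 2 over replicate 1 was 0.28 in the members and 0.01 in all genes, and the median size of the ratio, whatever its sign, was 1.14 and 1.17. Agreement between libraries is better at higher levels, so the counts were also set beside genes of like level. Of members with a mean of 5 to 10 TPM, 3 of 4 were over 2-fold apart (80.4% of all genes there), of those at 10 to 30 TPM 4 of 8 (61.0%), and of those at 30 to 100 TPM 6 of 7 (42.6%). No member had a mean of 100 to 300 TPM, where 24.3% of all genes were over 2-fold apart. The 7 members at 30 to 100 TPM were Smyd1, Myocd, Mef2a, Hopx, Tbx20, Gata4 and Foxp1, and Gata4 was the one within 2-fold.

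**Figure D3:**
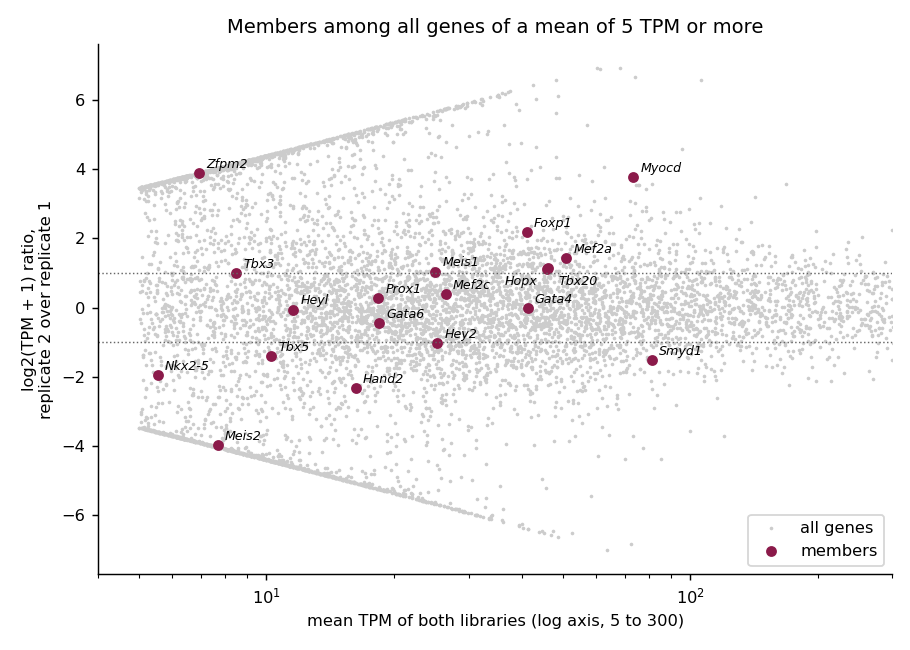
The log2(TPM + 1) ratio of replicate 2 over replicate 1 against mean TPM (log axis) for the 19 members averaging at least 5 TPM (dark points) over all genes of that mean up to 300 TPM (grey), with dotted lines at 2-fold. Of the 19 members, 13 lie outside the lines.

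TPM and counts gave different ratios between the libraries for some members. TPM divides reads by an effective length, which averages the transcript models of a gene by their share, so a library whose reads were assigned to shorter models gets a higher TPM from the same reads. In 7 of the 19 members the effective length differed over 1.5-fold between the libraries, beside 17.9% of all genes at that mean. In all 7 (Meis2, Myocd, Tbx20, Foxp1, Mef2a, Tbx3 and Prox1) it was the shorter in replicate 2, as it was in 57.4% of all genes with such a difference. For Meis2 this rests on 1 count. The effective length of Myocd was 4947 nt in replicate 1 and 1684 nt in replicate 2. Without the length correction, as counts per 1000000 (CPM), 11 of the 19 members were over 2-fold apart, 5 higher in replicate 2 and 6 in replicate 1, against 54.4% of all genes. The 2 members that dropped out were Mef2a, with a log2 ratio of 1.43 in TPM and 0.74 in CPM, and Tbx20, with 1.13 in TPM and 0.20 in CPM. Prox1 had a log2 ratio of 0.28 in TPM and -0.30 in CPM. The median log2 ratio of the members was -0.03 in CPM.

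**Figure D4:**
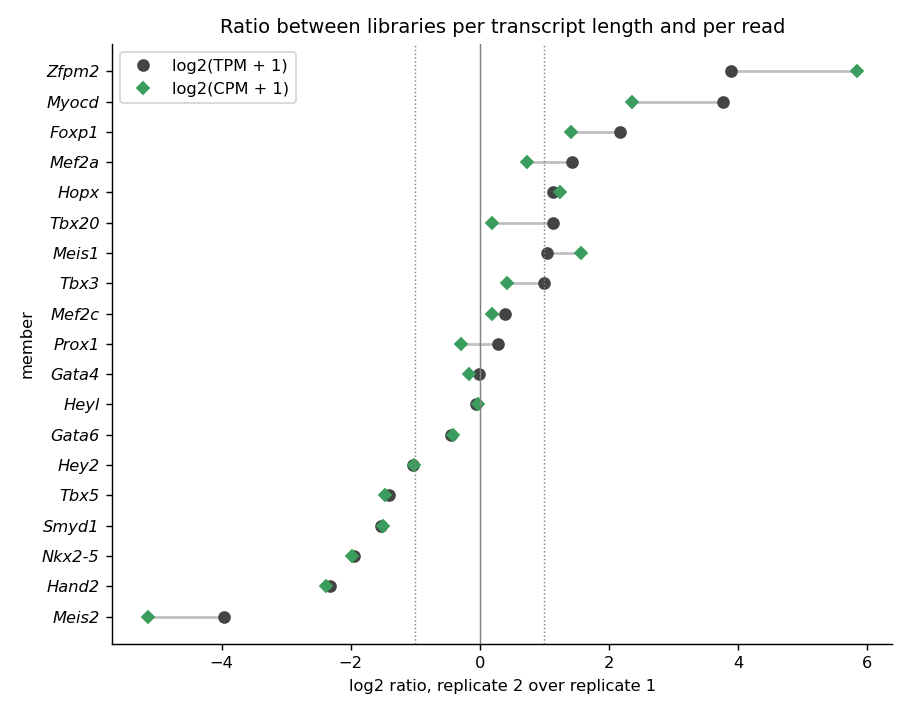
The log2 ratio of replicate 2 over replicate 1 for the 19 members averaging at least 5 TPM, from TPM (circles) and from CPM (diamonds), each with 1 added before the logarithm, with dotted lines at 2-fold. Mef2a and Tbx20 lie outside the lines in TPM and inside them in CPM, and Myocd stays outside in both.

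The model that led a gene often differed between the libraries. Among 13 members at that mean with 2 or more models and reads in both libraries, the model with the largest share of TPM differed in 9, beside 36.8% of all such genes. By share of expected counts it differed in 4 (Hopx, Mef2c, Meis1 and Meis2), against 31.2% of all. For Meis2 the lead in replicate 2 rests on 1 count by either share. The lead of Smyd1-202 over Smyd1-201 by TPM in replicate 1 was close, 50.3% against 49.7%. Short models weigh more in TPM than in counts. Models under 1000 nt held 0% of Myocd in replicate 1 and 69.8% in replicate 2, from 15.1% of its counts there. They held 8.73% and 51.5% of Foxp1, and 5.11% and 46.7% of Tbx3. Prox1-202, of 7913 nt, held 98.7% of Prox1 in replicate 1 and 39.3% in replicate 2, where Prox1-201, of 3285 nt and with another start, held 58.5%. Tbx20-201, of 6436 nt, held 91.5% and 27.6% of Tbx20, and the shorter Tbx20-202 the rest. Gata4-203 led in both libraries with 75.3% and 58.9%, and Heyl-201 with 100% and 99.4%.

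**Figure D5:**
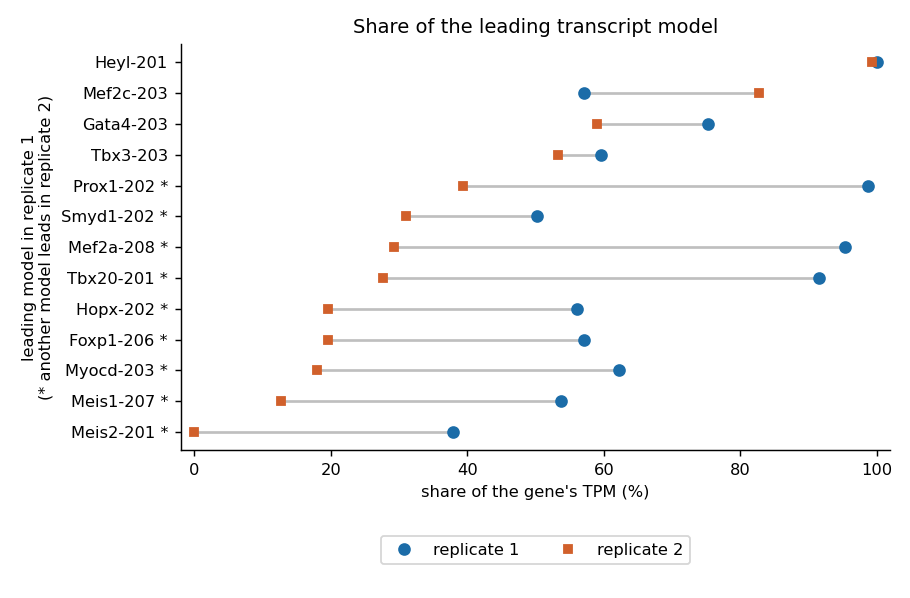
Share of the gene's TPM (percent) held in replicate 1 (circles) and replicate 2 (squares) by the model that led in replicate 1, for 13 members with 2 or more models. An asterisk marks the 9 members in which another model led in replicate 2, among them Mef2a, Prox1 and Tbx20. For Meis2 the lead in replicate 2 rests on 1 count.

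Some members share bases with other genes, and the sources used here give no strand setting of the counting, so reads from such stretches cannot be assigned for certain. In the annotation, exons of 14 members overlapped those of 15 other genes of the tables, of which 5 were read in a library. Hand2os1, an RNA on the opposite strand whose exons overlap those of Hand2 by 246 nt, was at 144 TPM in replicate 1 and 286 in replicate 2, above Hand2 in both and higher in replicate 2, the reverse of Hand2. The deposited posterior SD of the Hand2 counts was 12.4 and 6.98 against 1916 and 277 counts. Prox1os, opposite Prox1, was at 20.9 and 0 TPM, and 1010001N08Rik, opposite Gata6, at 47.2 and 5.84. Lysmd4, which overlaps Mef2a by 302 nt, was at 14.9 and 0.0102 TPM, higher in replicate 1 where Mef2a was lower. The last, 1700113A16Rik opposite Mef2d, was at 3.41 and 0 TPM.

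Partners and upstream signals of the members were counted in the same way. Of 29 cofactors and chromatin regulators, 16 were read in both libraries, and 8 of the 18 averaging at least 5 TPM differed over 2-fold, 1 higher in replicate 2 and 7 in replicate 1, beside 54.6%, 27.7% and 26.9% of all genes at such a mean. Fhl2, a LIM protein of the sarcomere, was highest at 695 and 1262 TPM. The corepressor Ncor1 was at 35.8 and 71.4 TPM, and the histone deacetylases Hdac3 and Hdac1 were at 35.2 and 29.7 and at 44.9 and 14.0. Tead1, a DNA-binding partner in the Hippo pathway, differed most, with 0.792 and 27.8 TPM. Of 17 signalling genes, 5 were read in both, and 4 of 5 at that mean were over 2-fold apart, where 80.4% of all genes at 5 to 10 TPM and 61.0% of those at 10 to 30 TPM were. Bmp10, a ligand of trabecular and atrial muscle, was at 10.6 and 19.9 TPM. Wnt2 was at 19.1 and 5.03 TPM, Bmp5 at 18.2 and 4.24, and Bmp4, the most different, at 0.0208 and 15.8. Of 14 genes of the early heart fields and the sinus node, 11 had 0 counts in both, for which no share over all genes was taken. Of these 14, 1 was read in both, beside 28.4% of all protein-coding genes.

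Genes that the members are known to act on were read far above them. Of 26 such targets, 24 were read in both. Of 25 averaging at least 5 TPM, 8 differed over 2-fold, 5 higher in replicate 2 and 3 in replicate 1. Over all genes, 54.6% at such a mean and 24.3% at 100 to 300 TPM were over 2-fold apart. Many of these targets had a mean over 300 TPM, where no such share was taken. Actc1, cardiac actin, was at 13940 and 23510 TPM, Myl2 at 5082 and 15945, and the troponins Tnnt2 and Tnni3 at 8730 and 9166 and at 5683 and 6709. The most different was Gjc1, a gap junction gene, at 0 and 11.5 TPM.

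Relatives of the members that are not members were counted too. Of 65 relatives by family name, 44 had 0 counts in both libraries, for which no share over all genes was taken. Read in both were 9, beside 28.4% of all protein-coding genes. In the Hes family that was Hes6, at 22.8 and 106 TPM. Among the Meis partners, these were higher in replicate 1: Pbx2 at 9.96 and 4.30 TPM, Pbx3 at 29.1 and 4.85 and Pknox1 at 15.9 and 5.17. Meis2 was also higher in replicate 1, and Meis1 was not. Smyd2 (97.5 and 184 TPM) and Smyd3 (17.5 and 37.2) were higher in replicate 2, opposite to Smyd1. Foxp2 was at 12.6 and 2.93 TPM, opposite to Foxp1, and Mrtfb, a ubiquitous relative of Myocd, at 7.25 and 15 TPM, though from 1919 and 955 counts, so that per read it was higher in replicate 1.

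The labelled tissue was checked by markers. All 5 cardiomyocyte markers were read in both libraries, beside 28.4% of all protein-coding genes, with summed levels of 30939 and 43321 TPM. None was over 2-fold apart, beside 54.6% of all genes averaging at least 5 TPM. All but Ryr2 averaged over 300 TPM, where no such share was taken. The 6 blood markers (Gata1, Klf1, Tal1, Spi1, Ptprc and Runx1, with no globin) had 0 counts in both, for which no share over all genes was taken. None of 13 genes of other tissues was read, beside 28.4% of all protein-coding genes read in both. At this input such zeros do not show that a cell type was absent. Chamber markers differed: 6 atrial ones summed to 12961 TPM in replicate 1 and 8251 in replicate 2. Among them Stard10 was at 34.2 and 0, Myl4 at 1104 and 987, and Kcnj3 the other way at 0 and 0.634. The 5 ventricular ones, which include Hey2 and Irx4, summed to 11789 and 26653. Tbx5 was higher in the library with more atrial signal, Irx4 in that with more ventricular signal, and Hey2 in that with less. Epicardial markers (6) summed to 167 and 29.7 TPM, with Wt1 at 0 in both and Upk3b and Krt19 at 0 in replicate 2, while Tbx18 was seen only in replicate 2. Valve and endocardial markers (4) summed to 59.4 and 6.03 TPM, a difference made mostly by Cytl1 at 46.9 and 0. Plvap was at 7.97 and 0.2045, Npr3 was close to equal at 3.751 and 3.415, and Nfatc1 went the other way at 0.7918 and 2.413. The 8 endothelial ones summed to 165 and 180. Of the 7 averaging at least 5 TPM, 2 were over 2-fold higher in replicate 2, among them Sox18 at 0 and 30.6. Another 2 were over 2-fold higher in replicate 1, among them Pecam1 at 72.3 and 34.8. Over all genes at such a mean, 27.7% and 26.9% went these ways. Fibroblast markers (6) summed to 1026 and 882 TPM, and smooth muscle markers (4) to 1043 and 1553, of which Acta2 made up 988 and 1527, while Tagln was at 32.7 and 7.56 and Cnn1 at 20.0 and 12.4. Conduction markers (7) summed to 5.00 and 0.941 TPM, of which Cacna1d made up 4.94 and 0.941, with Hcn4, Shox2, Cpne5 and Bmp2 at 0 in both, in libraries that held Tbx3 at 5.34 and 11.6 TPM. The part of these cell types in the members' levels was not tested.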

How the data were processed

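Gene and transcript tables of 2 libraries were used, 1 pair per library. Per the labels, mirVana extracts were used, and the library method named is Smart-seq, which amplifies cDNA from little RNA. The authors deposited expected counts (estimated reads that need not be whole) with posterior means and SDs, and TPM, which scales counts by effective length, per the file headers. The deposited transcript tables also give each model's share of its gene in percent. Bounds of TPM intervals, treated as a signal value, are as the authors deposited them. Notes with the deposited tables name mm10 and GENCODE M4. The quantifier is not given in the sources used here.

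TPM was rescaled to 1000000 over 43346 mouse genes, without spike-ins (2.40% and 1.27% of counts) and rows under bare numbers. Names came from GENCODE M21, which matched 42462 genes. Some gene models differ between the releases, those of Mef2c and Tbx20 included. Mouse genes held 39671930 expected counts in replicate 1 and 32751851 in replicate 2. A count of 0 allows up to 3 counts, which is 0.0756 and 0.0916 CPM, and for the members at 0 in both libraries 0.0263 to 0.0949 TPM. Intervals and such limits cover counting error only, as reads carry no molecular identifiers.

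Values are levels per library or mean ± SD. Ratios were taken on log2(TPM + 1), which understates those of low genes, among genes averaging at least 5 TPM. A pair of related genes was described as in 1 direction when both libraries gave its log2 ratio 1 sign and its mean was over 2 SD. Exons were aligned globally (match 1, mismatch -1, gap -2). The members and all lists were chosen with earlier results of these data known. Every member is named. Each list is shown by up to 4 genes of highest mean and that of largest ratio among those averaging at least 5 TPM, relatives by those read in both libraries. Tbxt, Gdf1 and Nkx5-1 were not matched by name. A few genes of these lists and an exon sequence are not reported here. Alternatives changed the thresholds, the pseudocount, the unit and the scaling (TMM of edgeR 4.0.16, DESeq2 1.42.0 size factors, both as factors only, from counts rounded to whole numbers). Simulated counts were used only to check the calculation of the ratio, in CPM. They held counting error alone, without amplification or differences in transcript length, and say nothing of the spread between these libraries. Python 3.11.15, numpy 2.4.6, pandas 2.3.3 and R 4.3.3 were used.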

Additional observations from a re-analysis of the deposited data

How the results depend on the processing

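The count of members read in both libraries stayed within 1.5 times of 17 under each threshold in TPM or counts, in posterior means and in TPM as deposited, and replicates taken alone gave 20 and 22 read. The 13 members over 2-fold apart became 5 at 4-fold and stayed within 1.5 times under the other settings, from 10 of 15 with a filter at 10 TPM to 19 of 28 with no filter on the mean, with 11 of 19 in CPM. The median log2 ratio of members moved from 0.28 to -0.031 in CPM, where 5 were over 2-fold higher in replicate 2 and 6 in replicate 1, and to 0.17 with DESeq2 size factors. Size factors moved the median of all genes from 0.01 to -0.10. The share held by members was 0.140% of expected counts against 0.0574% of TPM, and 0.0476% to 0.0672% with 1 library left out. By share of expected counts the leading models of Mef2a and Mef2d, but not Mef2c, were shared, again 2 of 3. Family pairs in 1 direction stayed within 1.5 times of 8 with the other pseudocount, in CPM and in posterior means. With CPM, 2 of 19 ratios fell below 2-fold and 1 within 2-fold changed sign. Meis1 fell below 2-fold with TMM, at 0.96, and Tbx3 passed it with a pseudocount of 0.1, at 1.10. Ratios between libraries cannot be recomputed with a library left out. No paired analysis was possible because there is 1 group.

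With 1 library per heart and 1 cell-equivalent of RNA, whether a member at 0 in 1 library was missed in sampling or amplification was not tested. At these depths the 3 counts that a 0 allows are under 0.1 TPM for such members. Ranges over the libraries do not give a spread between hearts.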

Other observations

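Among 19 pairs of related members or opposed regulators, the log2 ratio of the pair had 1 sign in both libraries in 16, and in 8 its mean exceeded 2 SD. With n = 2 this is a rule on the gap between the libraries, and no share over other gene pairs was taken. Beside the GATA pair these were Gata6 over Gata5, Tbx3 over Tbx2, Tbx20 over Tbx18, Hand2 over Hand1, Hey2 over Hey1, Hey2 over Nr2f2, and Myocd over Srf. In 6 of these 8 the lower gene had 0 counts in a library. For pairs whose lower gene had 0 counts in both (Gata5, Tbx2, Hand1, Hey1 or Isl1), the sign was fixed in advance. For Myocd over Srf the mean log2 ratio was 3.55 ± 0.54 (SD, n = 2). Mef2a over Mef2c was 1.19-fold in replicate 1 and 2.48-fold in replicate 2, and Hey2 over Heyl 2.90-fold and 1.44-fold. Tbx20 over Tbx5 ran from 1.85-fold to 12.2-fold, and Mef2c over Mef2d from 3.21-fold to 32.4-fold.

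Some relatives had most of their counts in 1 library. Gata2, a factor of blood and endothelium, had 1 count in replicate 1 and 1163 in replicate 2. Irx2 had 883 and 0 counts, Lhx6 1382 and 12, Nr2f6 0 and 673, and Smyd5 3638 and 0. Mrtfa, a relative of Myocd, had 431 and 0.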
